A study of Mus musculus with 8 samples.

Results

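The surfactant and alveolar type 2 genes described here are *Sftpa1*, *Sftpb*, *Sftpc*, *Sftpd*, *Abca3*, *Lamp3*, *Napsa*, *Lpcat1*, *Slc34a2* and *Cd36*. They are 10 of the 48709 genes in the count table. All are known for roles in alveolar type 2 cells, and they were listed by name with earlier results of these data known, so the tests were not blind to the values. All 10 identifiers were found in the table and counted well enough to be tested. RNA was sequenced from 8 lung tumors of mice of the *K* model, whose tumors start in the lung cells that Cre recombinase reaches.

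According to the study, Cre came from a lentiviral CRISPR vector delivered to the lung, so every tumor of both groups had the *K* genotype and received Cre and Cas9. In 4 tumors the vector held a non-targeting guide RNA (*K-Ctrl*), and in the other 4 a guide RNA against *Setd2*, whose product trimethylates H3K36 (*K-Setd2KO*). The mice were of mixed B6J/129S4vJae background, and their age at harvest is not given in the labels. The study matched the tumors for stage by histology and described the *K-Setd2KO* tumors as low grade adenomas, while the labels call all samples lung adenocarcinoma. The design text speaks of flash-frozen tumors, whereas the extraction text mentions cell lines, and the word tumors follows the design text. The labels name no sorting step, so every value may cover tumor cells together with the stroma, blood cells and lung tissue taken with them. The labels do not say whether tumors came from separate mice, and p-values measure the spread between these samples only.

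Pulmonary surfactant is the film of phospholipid and protein that lowers surface tension in the alveolus. Alveolar type 2 cells make it, store it in lamellar bodies and release it by exocytosis. Its phospholipids are packed by a lamellar body transporter and remodeled by acyltransferases, its hydrophobic proteins SP-B and SP-C are cut from precursors by proteases, and its collectins SP-A and SP-D bind microbes and surfactant. Type 2 cells are a well known cell of origin of mouse lung adenoma, and such tumors usually keep making surfactant proteins.

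Total counts ranged from 5806599 to 21290402 per tumor, and the totals of both groups overlapped. The 10 genes took 4.95 to 7.24% of all counts in *K-Ctrl* and 5.92 to 7.88% in *K-Setd2KO*, and *Sftpc* by itself took between 2.20 and 3.25% in the 8 tumors. The defining gene of type 2 cells was therefore abundant in every tumor. *Setd2* transcript averaged 140 ± 8.81 and 136 ± 15.5 CPM in control and *K-Setd2KO* tumors (SD, n = 4 each). CPM is the usual depth-corrected count, here with TMM scaling, and all other ± values are likewise the SD of the 4 tumors of a group. The log2 fold change of -0.05 (edgeR adjusted p = 0.824) does not check the labels, because a guide-directed deletion need not remove the transcript.

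To examine how *Setd2* inactivation relates to the type 2 program, the 2 genotypes were compared gene by gene. *Sftpb*, which encodes a surfactant protein needed for life in air, and *Lpcat1*, which encodes the acyltransferase that makes the main surfactant phospholipid, rose in *K-Setd2KO* by 2.12-fold and 2.07-fold. *Napsa*, which encodes a protease of surfactant protein precursors, was 3.03-fold lower. The other 7 genes, among them *Sftpc*, *Sftpa1* and *Abca3*, did not pass the test. In the edgeR fit across all genes, 12.7% of the 14929 genes tested had an adjusted p under 0.05, with 4.97% higher and 7.74% lower in *K-Setd2KO*. Beside that background, 2 of the 10 members were called higher and 1 lower. For these 3 of 10 members the CPM ranges of both genotypes did not overlap, as was true of 20.3% of all genes tested. The members' median log2 fold change was 0.12, against 0.03 over all genes tested.

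**Figure D1:**
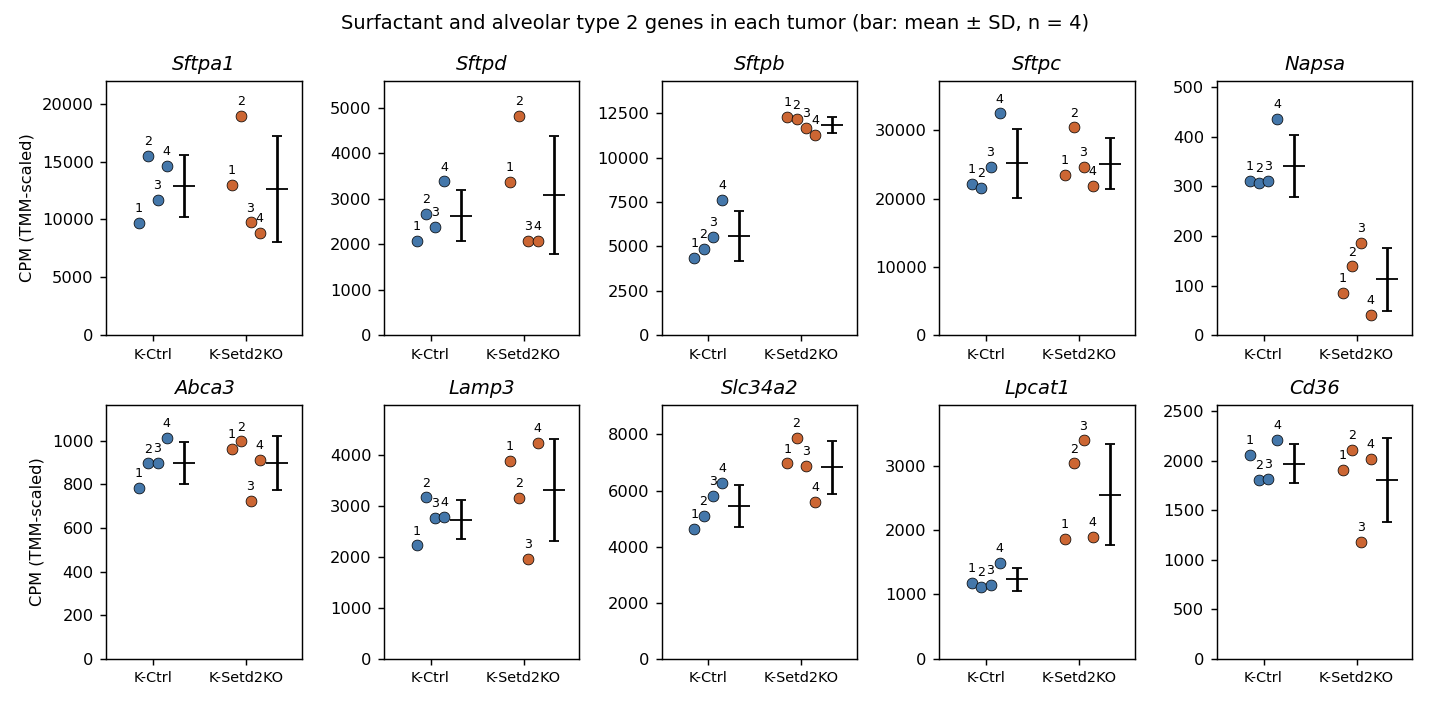
CPM (TMM-scaled, linear axis from 0) of each gene in each tumor, with numbers giving the replicate and bars the mean ± SD of 4 tumors. The 4 *K-Setd2KO* tumors sit above all 4 *K-Ctrl* tumors for *Sftpb* and *Lpcat1* and below them for *Napsa*, while the groups overlap for the other 7 genes.

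**Figure D2:**
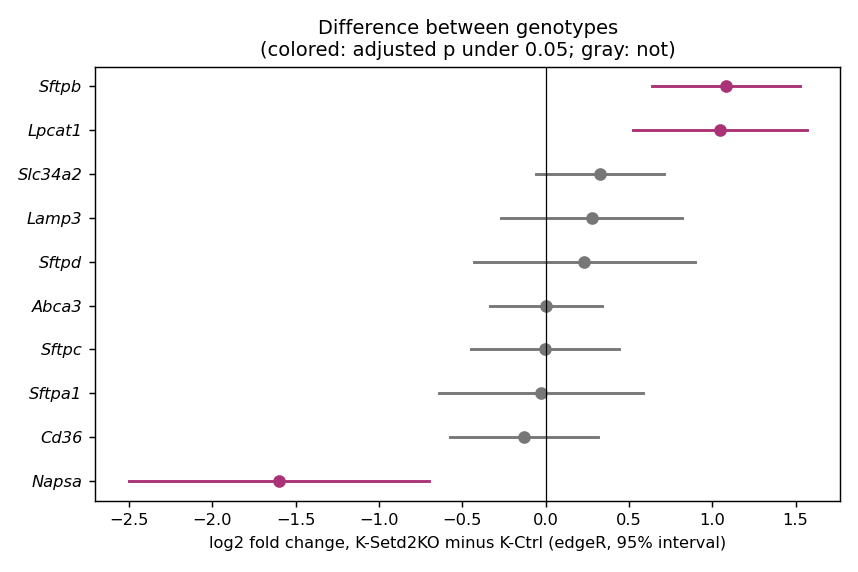
Log2 fold change (*K-Setd2KO* minus *K-Ctrl*) of each gene with its 95% interval from the edgeR fit, colored where the adjusted p was under 0.05. *Sftpb* (1.09) and *Lpcat1* (1.05) lie to the right of 0 and *Napsa* (-1.60) to the left, and the other 7 intervals cross 0.

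The collectins were examined first. *Sftpa1* (ENSMUSG00000021789.14, GRCm38 chromosome 14, 41131782 to 41136452, plus strand) encodes SP-A, the most abundant surfactant protein. It stood at 9685, 15504, 11707 and 14656 CPM in *K-Ctrl* and at 12960.3, 18988, 9746 and 8857 CPM in *K-Setd2KO*, listed here and for all other genes from replicate 1 to replicate 4. *K-Setd2KO* held both the highest tumor (replicate 2) and the lowest (replicate 4), and the groups overlapped throughout. The log2 fold change was -0.03 (SE 0.272, 95% interval -0.64 to 0.59, edgeR adjusted p = 0.956).

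*Sftpd* (ENSMUSG00000021795.9, chromosome 14, 41172212 to 41185198, minus strand) encodes SP-D and lies near *Sftpa1* on the same chromosome. Its values were 2075, 2669, 2371 and 3381 CPM in *K-Ctrl* and 3362, 4815, 2071 and 2075 CPM in *K-Setd2KO*. As for *Sftpa1*, *K-Setd2KO* replicates 1 and 2 were high and replicates 3 and 4 low. This gave a log2 fold change of 0.23 (SE 0.295, 95% interval -0.43 to 0.90, edgeR adjusted p = 0.640). Over the 8 tumors *Sftpa1* and *Sftpd* had a root-mean-square difference of 0.178 in centered log2 CPM. This was the smallest of all pairs of members, but *Abca3* and *Cd36* were practically level with it at 0.179. Both *Sftpa1* and *Sftpd* were closer to genes outside the members, given below, than to each other. The log2 ratio of *Sftpa1* to *Sftpd* within a tumor averaged 2.30 ± 0.179 and 2.06 ± 0.130 in control and *K-Setd2KO* tumors (SD, n = 4 each), a difference of -0.23 (two-sided exact permutation p = 0.0857, 0.114 after adjustment over the 4 ratios tested).

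The wider collectin family was examined next, as a list of 7 genes that includes *Sftpa1* and *Sftpd*. Of these, 4 had enough counts to be tested. By edgeR, as by DESeq2 and limma, none was called higher and 1 was called lower, and the median log2 fold change was 0.10. Over all genes tested, edgeR called 4.97% higher and 7.74% lower. The called gene was *Colec12*, a membrane collectin known from endothelium and stroma, which averaged 74.2 ± 18.7 CPM in controls against 23.7 ± 10.2 CPM (log2 fold change of -1.65, SE 0.319, edgeR adjusted p = 0.0148). It kept its call in all 19 alternative settings of the analysis. Of 14 endothelial markers 4 were called lower as well (1 to 5 with a tumor left out), and their part in this result was not tested.

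Of the genes of the 2 hydrophobic surfactant proteins, *Sftpb* rose and *Sftpc* was not called. *Sftpb* (ENSMUSG00000056370.15, chromosome 6, 72304610 to 72314371, plus strand) encodes SP-B, without which lamellar bodies do not form and newborns cannot breathe. It was at 4362, 4838, 5543 and 7618 CPM in *K-Ctrl* and at 12311, 12167, 11668 and 11294 CPM in *K-Setd2KO*. All 4 *K-Setd2KO* tumors lay above all 4 *K-Ctrl* tumors, and they lay close together, with a coefficient of variation of 3.94% against 25.7% in *K-Ctrl*. Mean levels were 5590.1 ± 1436 and 11859.9 ± 467 CPM (SD, n = 4 each). The log2 fold change was 1.09 (SE 0.197, 95% interval 0.64 to 1.53, edgeR adjusted p = 0.0122), and the exact permutation test gave p = 0.0286, the smallest that the 70 assignments of 4 and 4 tumors allow.

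The 250 bases before the start of *Sftpb* are shown with those of *Lpcat1*, the other gene that rose, and of *Sftpa1*, a collectin gene that was not called. They are the plus strand in RefSeq on GRCm38.p6, at chr6:72304360-72304609, chr13:73466981-73467230 and chr14:41131538-41131787. Capitals mark CTCAAG, a core sequence bound by NKX2-1, the lung lineage factor known to act at surfactant promoters. RefSeq places the start of *Lpcat1* 34 bases and that of *Sftpa1* 6 bases downstream of the GENCODE gene start given with each gene here, so those windows reach into the GENCODE gene, while both starts of *Sftpb* are the same.
*Sftpb*: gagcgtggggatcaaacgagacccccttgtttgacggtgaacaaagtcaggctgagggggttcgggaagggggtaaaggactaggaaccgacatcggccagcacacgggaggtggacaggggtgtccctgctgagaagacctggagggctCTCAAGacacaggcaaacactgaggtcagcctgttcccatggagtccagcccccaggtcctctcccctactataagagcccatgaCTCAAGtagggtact
*Lpcat1*: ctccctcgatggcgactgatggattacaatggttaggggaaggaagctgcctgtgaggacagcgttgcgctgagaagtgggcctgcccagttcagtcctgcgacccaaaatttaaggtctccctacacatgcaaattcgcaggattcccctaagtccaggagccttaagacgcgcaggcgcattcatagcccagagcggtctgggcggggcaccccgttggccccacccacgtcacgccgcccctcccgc
*Sftpa1*: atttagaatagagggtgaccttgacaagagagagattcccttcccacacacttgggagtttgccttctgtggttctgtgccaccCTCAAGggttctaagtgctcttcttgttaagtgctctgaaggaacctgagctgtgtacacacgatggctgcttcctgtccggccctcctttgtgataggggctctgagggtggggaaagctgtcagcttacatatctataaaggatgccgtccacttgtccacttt
With positions counted back from the start, CTCAAG began at -100 and -15 in *Sftpb* and at -166 in *Sftpa1*, and the *Lpcat1* window held no match. The windows of *Abca3*, *Lamp3*, *Slc34a2* and *Cd36*, not shown, held no match either. A match on either strand was present in 13.3% of all 32851 promoter windows of this length. In the windows of the 7 members that could be searched, TGTTTAC (a FOXA core, in 3.17% of all windows) was found in *Lamp3*, TTGCNNAA (a C/EBP core, 9.56%) in *Slc34a2* and TATAAA (12.4%) in *Sftpa1*. CACTTGA (another NKX2-1 sequence, 2.68%), AGATAA (a core of GATA factors, 9.99%) and CCGGAAG (an ETS core, 6.91%) were found in none of the 7. These matches describe letters in the windows, and binding was not measured.

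*Sftpb* was also read against its chromosome, because genes of chromosome 6 were higher as a whole in some tumors. The median centered log2 CPM of 839 chromosome 6 genes was -0.17, -0.10, -0.12 and -0.10 in the 4 controls, in order of replicate number, and 0.19, -0.16, 0.20 and 0.24 in the *K-Setd2KO* tumors. *K-Setd2KO* replicate 2, at -0.16, had 12167 CPM of *Sftpb*, and the other 3 *K-Setd2KO* tumors had 11294 to 12311 CPM. In a limma fit of log2 CPM with the chromosome median subtracted in every tumor, the log2 fold change of *Sftpb* was 0.88 and it was not called (limma adjusted p = 0.0568). The same limma fit without the subtraction, added after the data were seen, gave 1.12 and kept the call (limma adjusted p = 0.0238). None of the other 18 planned settings removed the call, and with 1 tumor left out the log2 fold change stayed between 0.98 and 1.27. The part of the chromosome 6 shift in the *Sftpb* difference was not tested.

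**Figure D3:**
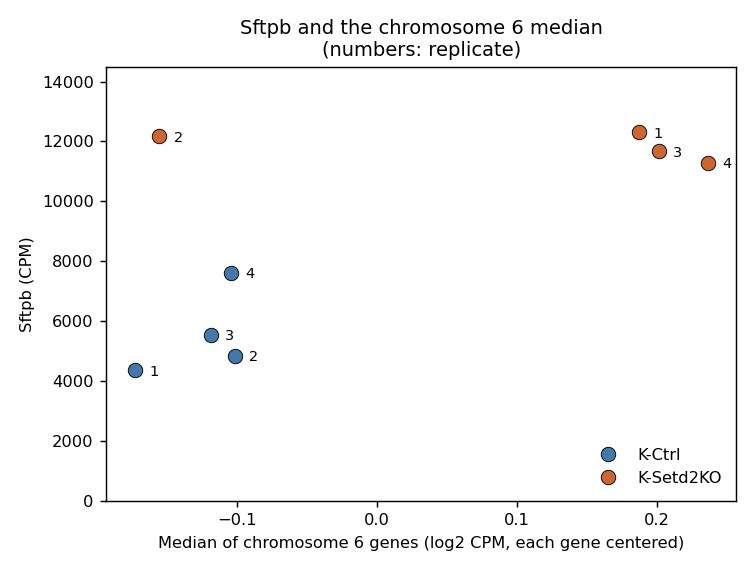
*Sftpb* in CPM (vertical axis from 0) against the median centered log2 CPM of chromosome 6 genes (horizontal axis) in each tumor, with numbers giving the replicate. *K-Setd2KO* replicate 2 sits at -0.16 on the horizontal axis and 12167 CPM on the vertical axis, and the *K-Ctrl* tumors sit between -0.17 and -0.10 and between 4362 and 7618 CPM.

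*Sftpc* (ENSMUSG00000022097.3, chromosome 14, 70520941 to 70524081, minus strand) encodes SP-C, the protein most specific to type 2 cells. It was at 22088, 21506, 24601 and 32459 CPM in *K-Ctrl* and at 23510.5, 30418, 24672 and 21877 CPM in *K-Setd2KO*. The groups overlapped almost fully, and the means of 25164 ± 5046 and 25119 ± 3714 CPM (SD, n = 4 each) gave a log2 fold change of -0.0025 (SE 0.198, 95% interval -0.45 to 0.44, edgeR adjusted p = 0.995). Set against *Sftpb* in the same tumor, which does not depend on library scaling, the log2 ratio of *Sftpb* to *Sftpc* averaged -2.18 ± 0.108 and -1.07 ± 0.179 in control and *K-Setd2KO* tumors (SD, n = 4 each). The ratio was higher in all 4 *K-Setd2KO* tumors, by 1.11 (two-sided exact permutation p = 0.0286, the smallest possible, and 0.0571 after adjustment over 4 ratios, which misses the threshold of 0.05).

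Of the proteases of surfactant precursors, *Napsa* fell and *Ctsh* rose. *Napsa* (ENSMUSG00000002204.9, chromosome 7, 44572380 to 44586862, plus strand) encodes napsin A, an aspartic protease that takes part in SP-B maturation and is used as a marker of lung adenocarcinoma. It was at 311, 308, 311 and 436 CPM in *K-Ctrl* and at 85.5, 139, 185 and 40.6 CPM in *K-Setd2KO*. Every *K-Setd2KO* tumor was below every *K-Ctrl* tumor, and the spread among *K-Setd2KO* tumors was wide, with a coefficient of variation of 56.0% against 18.5%. The log2 fold change was -1.60 (SE 0.399, 95% interval -2.50 to -0.70, edgeR adjusted p = 0.0338, exact permutation p = 0.0286). A gene of the opposite strand, *Gm15396*, overlaps *Napsa*, and whether counting used the strand is not given in the sources used here.

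The call of *Napsa* was the least stable of the 3, being lost in 8 of 19 settings with its direction kept in all 19. The edgeR adjusted p rose to 0.0659, 0.0588, 0.0739 and 0.0628 without *K-Ctrl* replicates 1, 2, 3 and 4 and to 0.0748 without *K-Setd2KO* replicate 1, with log2 fold changes of -1.64, -1.65, -1.64, -1.46 and -1.48. By *Xist* and Y-linked transcripts, 1 of 4 *K-Ctrl* and 3 of 4 *K-Setd2KO* tumors were from females. With sex as a term the log2 fold change was -1.36 (edgeR adjusted p = 0.0701), and within males and within females the differences were -0.91 and -1.97. Each within-sex difference set 3 tumors against 1, *K-Setd2KO* replicate 3 in males and *K-Ctrl* replicate 2 in females. For *Sftpb* the within-sex differences were 1.04 and 1.30, and for *Lpcat1* they were 1.43 and 0.98. Those of *Sftpc*, *Sftpd*, *Abca3*, *Lamp3* and *Cd36* had opposite signs in the sexes, while those of *Sftpa1* and *Slc34a2* did not.

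*Ctsh* encodes cathepsin H, a lysosomal protease that also trims SP-B and SP-C precursors. It was at 1061, 899, 978 and 1016 CPM in *K-Ctrl* and at 2211, 1737, 1896 and 1654 CPM in *K-Setd2KO*, with no overlap. It rose with a log2 fold change of 0.92 (SE 0.143, edgeR adjusted p = 0.00812). The log2 ratio of *Napsa* to *Ctsh* averaged -1.55 ± 0.237 and -4.26 ± 0.924 in control and *K-Setd2KO* tumors (SD, n = 4 each). The difference of -2.71 is given as a description, because 2 genes that each separate the groups in opposite directions must give a ratio that separates them as well.

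**Figure D4:**
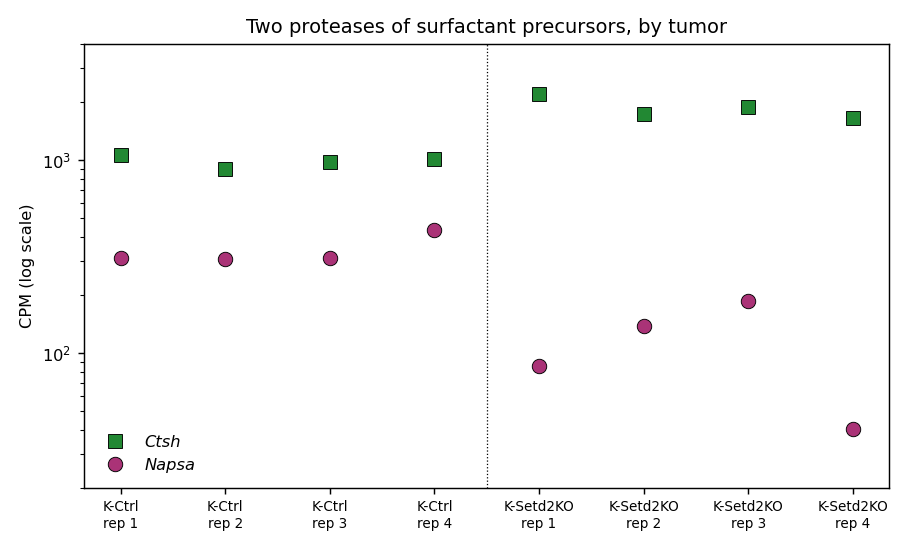
CPM of *Napsa* (circles) and *Ctsh* (squares) in each tumor on a log axis, with the 4 *K-Ctrl* tumors left and the 4 *K-Setd2KO* tumors right of the dotted line. *Napsa* lies between 308 and 436 CPM in *K-Ctrl* and between 40.6 and 185 CPM in *K-Setd2KO*, while *Ctsh* lies between 899 and 1061 CPM and between 1654 and 2211 CPM.

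The list of 28 other genes of precursor processing, lamellar body traffic, secretion and recycling held 7 genes called higher, none called lower and 21 not called. The median over these genes was 0.08 on the log2 scale. In the same fit 4.97% of all genes tested were called higher and 7.74% lower. By edgeR, 10 of the 28 had an unadjusted p under 0.05, and DESeq2 called 8 higher and none lower. Beside *Ctsh*, *Cd63*, a tetraspanin of late endosomes and secretory organelles, rose from 366 ± 55.3 to 775 ± 71.3 CPM (log2 fold change of 1.08, SE 0.147, edgeR adjusted p = 0.00643). *Rab27a*, a GTPase that docks secretory granules, rose from 168 ± 33.4 to 341 ± 41.6 CPM (1.02, SE 0.166, edgeR adjusted p = 0.00877). The other 4 called genes, named after their values were seen, were *Vamp8*, *Hps1*, *Hps5* and *Vps33b*, which act in vesicle fusion and in the making of lysosome-related organelles. When libraries were scaled to the general epithelial markers, the median of all genes fell to -0.59, and 0.79% of all genes tested were called higher and 35.9% lower. Of the 28 genes none was called higher and 11 were called lower on this scale, a share close to that of all genes. *Cd63*, *Ctsh* and *Rab27a* kept a higher level under that scaling (log2 fold changes of 0.47, 0.31 and 0.39) but lost their calls.

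*Abca3* and *Lamp3*, which encode proteins of the lamellar body membrane, were not called in the edgeR fit. *Abca3* (ENSMUSG00000024130.15, chromosome 17, 24351950 to 24410201, plus strand) encodes the transporter that loads phospholipid into lamellar bodies. It was at 782, 896, 897 and 1014 CPM in *K-Ctrl* and at 960.5, 997, 722 and 914 CPM in *K-Setd2KO*. Its mean levels of 897 ± 94.6 and 898 ± 122 CPM (SD, n = 4 each) gave the narrowest interval of the 10 genes, with a log2 fold change of 0.0018 (SE 0.149, 95% interval -0.33 to 0.34, edgeR adjusted p = 0.995). The gene overlaps 2 genes of the opposite strand.

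*Lamp3* (ENSMUSG00000041247.7, chromosome 16, 19653381 to 19706365, minus strand) encodes a glycoprotein of the lamellar body membrane that is also a marker of mature dendritic cells. It was at 2231, 3173, 2768 and 2784 CPM in *K-Ctrl* and at 3897, 3161, 1967 and 4243 CPM in *K-Setd2KO*. *K-Setd2KO* replicates 1 and 4 were above all controls and replicate 3 was below them. Of 10 dendritic cell markers tested 4 were called lower, and their part in the *Lamp3* values was not tested. The difference on the log2 scale was 0.28 (SE 0.241, 95% interval -0.27 to 0.82, edgeR adjusted p = 0.478). The log2 ratio of *Abca3* to *Lamp3* averaged -1.60 ± 0.162 and -1.84 ± 0.346 in control and *K-Setd2KO* tumors (SD, n = 4 each), a difference of -0.23 (two-sided exact permutation p = 0.286 before and after adjustment over 4 ratios).

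Among genes of lipid synthesis and transport, *Lpcat1* rose. *Lpcat1* (ENSMUSG00000021608.14, chromosome 13, 73467197 to 73516422, plus strand) encodes lysophosphatidylcholine acyltransferase 1, which makes dipalmitoyl phosphatidylcholine. It was at 1177, 1118, 1149 and 1492 CPM in *K-Ctrl* and at 1864, 3036, 3393 and 1899 CPM in *K-Setd2KO*. The groups did not overlap, and *K-Setd2KO* replicates 2 and 3 stood well above replicates 1 and 4. Mean levels were 1234 ± 174 and 2548 ± 784 CPM (SD, n = 4 each), with a log2 fold change of 1.05 (SE 0.231, 95% interval 0.53 to 1.57, edgeR adjusted p = 0.0217, exact permutation p = 0.0286). The call was lost in 6 of 19 settings. Without *K-Ctrl* replicate 1, 2 or 3 the log2 fold changes were 1.02, 1.00 and 1.01 and the edgeR adjusted p 0.0605, 0.0588 and 0.0704, and without *K-Setd2KO* replicate 3 they were 0.88 and 0.0532.

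Of 26 other genes of surfactant phospholipid synthesis, 1 was called higher, 2 lower and 23 neither, and the median log2 fold change was 0.20. The same fit called 12.7% of all genes tested, 4.97% higher and 7.74% lower. *Fasn*, fatty acid synthase, rose from 772 ± 52.5 to 1202 ± 234 CPM (log2 fold change of 0.64, SE 0.162, edgeR adjusted p = 0.0342). *Lpin1*, a phosphatidate phosphatase, fell from 63.0 ± 23.9 to 25.0 ± 4.39 CPM (-1.33, SE 0.266, edgeR adjusted p = 0.0158). *Elovl6*, which lengthens palmitate, fell from 8.50 ± 2.37 to 2.15 ± 1.20 CPM (-2.03, SE 0.423, edgeR adjusted p = 0.0181). *Lpin1* and *Elovl6* are also strongly expressed in fat tissue, and the summed adipocyte markers ranged from 1.43 to 51.5 CPM in *K-Ctrl* and from 0.205 to 2.98 CPM in *K-Setd2KO*, whose part in these values was not tested. The call of *Fasn* held in 11 of 19 settings and in 3 of the 8 fits with a tumor left out (*K-Ctrl* replicate 4 or *K-Setd2KO* replicate 3 or 4), and it was lost with a sex term. The call of *Lpin1* held in 18 settings and was lost with a sex term, and that of *Elovl6* held in 16. The number called was 1 without *K-Ctrl* replicate 3 and 5 without *K-Ctrl* replicate 4 or *K-Setd2KO* replicate 2, and DESeq2 called 6. Scaling to the epithelial markers left none called higher and 4 of 26 lower, where 35.9% of all genes were called lower and the median of all genes was -0.59, with *Fasn* at 0.023.

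*Slc34a2* and *Cd36* encode transport proteins. *Slc34a2* (ENSMUSG00000029188.14, chromosome 5, 53038081 to 53071664, plus strand, overlapped by *Gm17182* on the opposite strand) encodes the sodium-phosphate cotransporter of type 2 cells. It was at 4619, 5090.2, 5816 and 6266 CPM in *K-Ctrl* and at 6966, 7889, 6868 and 5592 CPM in *K-Setd2KO*. *K-Setd2KO* replicates 1, 2 and 3 were above all controls, and replicate 4 fell among them. Its log2 fold change was 0.33 (SE 0.170, 95% interval -0.06 to 0.71, edgeR adjusted p = 0.234).

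*Cd36* (ENSMUSG00000002944.15, chromosome 5, 17781690 to 17888801, minus strand) encodes a fatty acid uptake receptor that macrophages, capillary endothelium and fat cells make as well. It was at 2055, 1806, 1814 and 2213 CPM in *K-Ctrl* and at 1909, 2108, 1179 and 2019 CPM in *K-Setd2KO*. The groups overlapped, with *K-Setd2KO* replicate 3 the lowest tumor. Its log2 fold change was -0.13 (SE 0.198, 95% interval -0.57 to 0.32, edgeR adjusted p = 0.702). Of 12 macrophage and leukocyte markers 7 and of 14 endothelial markers 4 were called lower in *K-Setd2KO*, and their part in the *Cd36* values was not tested.

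To compare levels between genes, CPM was divided by the exon length of each gene in kb. In *K-Ctrl* the order was *Sftpc* (31298 CPM per kb), *Sftpa1* (4506), *Sftpb* (2840.5), *Sftpd* (1979), *Slc34a2* (1087), *Lamp3* (819), *Cd36* (549), *Lpcat1* (299), *Napsa* (128) and *Abca3* (102). Neighbors whose tumors overlapped in *K-Ctrl* were *Sftpa1* and *Sftpb*, *Sftpb* and *Sftpd*, and *Slc34a2* and *Lamp3*. In *K-Setd2KO* *Sftpc* again led (31243 CPM per kb), *Sftpb* (6026) stood before *Sftpa1* (4419), *Lpcat1* (617) before *Cd36* (502), and *Abca3* (102) before *Napsa* (42.3). Only *Sftpc* and *Sftpb*, *Cd36* and *Abca3*, and *Abca3* and *Napsa* were neighbors without overlap in *K-Setd2KO*, so that *Sftpb* and *Sftpa1* could not be ranked there.

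The genes whose pattern was most like that of a member were found by the root-mean-square difference of centered log2 CPM over the 8 tumors. *Lpcat1* was nearest to *Elmod3* (0.105) and *Ddx47* (0.126), which lie on chromosome 6, although *Lpcat1* does not. The nearest to *Napsa* were *Mfsd2a* (0.317) and *Sv2a* (0.344), at larger differences than the nearest genes of the other members listed here. *Sftpc* was nearest to *Arhgef2* (0.0893) and *Guk1* (0.0916), and *Sftpa1* to *Lrrc20* (0.141) and *Gm4332* (0.142). *Sftpd* was nearest to *Smpd1* (0.136) and *Lrrc3* (0.157), *Abca3* to *Ubald1* (0.0365) and *Zdhhc5* (0.0628), and *Lamp3* to *Ly6e* (0.123) and *Sgms1* (0.134). *Slc34a2* was nearest to *Pfkfb2* (0.0661) and *Bloc1s4* (0.0748), and *Cd36* to *Pabpc4* (0.0873) and *Bysl* (0.0886). Likeness over tumors of 2 groups follows the group difference, so genes listed for *Lpcat1* and *Napsa* share their direction by construction.

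Of 25 other alveolar type 2 markers, 2 were called higher, 2 lower and 21 neither, with log2 fold changes between -3.61 and 2.24 around a median of 0.14. Among all genes tested 12.7% were called in this fit, 4.97% higher and 7.74% lower. *Wfdc2*, a secreted whey acidic protein, rose from 294 ± 8.20 to 514 ± 154 CPM (log2 fold change of 0.81, SE 0.215, edgeR adjusted p = 0.0396). *Mgst1*, a microsomal glutathione transferase, rose from 320.04 ± 23.6 to 612 ± 226 CPM (0.94, SE 0.249, edgeR adjusted p = 0.0401). *Acoxl*, an acyl-CoA oxidase-like gene, fell from 109 ± 25.7 to 20.3 ± 5.99 CPM (-2.42, SE 0.248, edgeR adjusted p = 0.00370). *Hc*, complement component C5, fell from 2145 ± 294 to 794 ± 406 CPM (-1.43, SE 0.344, edgeR adjusted p = 0.0289). The calls of *Wfdc2* and *Mgst1* failed in most settings. *Wfdc2* was called in 8 of 19 settings and in 1 of the 8 fits with a tumor left out (*K-Setd2KO* replicate 4), and *Mgst1* in 7 of 19 and in 1 of 8 (*K-Setd2KO* replicate 2). Neither was called by limma voom. *Hc* was called in 14 settings and in 3 of 8 such fits, and *Acoxl* in all 19 settings. The number called was 1 without *K-Ctrl* replicate 1, 2 or 3 or *K-Setd2KO* replicate 1 and 2 without *K-Setd2KO* replicate 3. With scaling to the epithelial markers none was called higher and 7 of 25 lower, where 35.9% of all genes were called lower and the median of all genes was -0.59, with *Wfdc2* at 0.20 and *Mgst1* at 0.33.

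Regulators of type 2 cells were read in the same way. Of 22 listed genes 21 were tested, 5 were called higher, 1 lower and 15 neither, the median log2 fold change was 0.39, and *Tfap2c* was at 0 counts in all tumors. The shares over all genes tested were 4.97% higher and 7.74% lower. *Elf3*, an epithelial ETS factor that is also on the list of general epithelial markers, rose from 22.5 ± 5.05 to 57.3 ± 3.80 CPM (log2 fold change of 1.35, SE 0.169, edgeR adjusted p = 0.00560). *Cebpa*, which drives type 2 maturation, rose from 312 ± 52.2 to 580.01 ± 35.4 CPM (0.89, SE 0.143, edgeR adjusted p = 0.00834), and *Foxa2*, a pioneer factor at surfactant promoters, from 46.1 ± 11.5 to 89.5 ± 9.05 CPM (0.96, SE 0.175, edgeR adjusted p = 0.0124). *Tcf21*, which marks lung mesenchyme and not type 2 cells, fell from 10.9 ± 6.64 to 1.91 ± 1.15 CPM (-2.49, SE 0.561, edgeR adjusted p = 0.0232). *Klf5* and *Spry2*, named after their values were seen, were the other 2 called higher. *Nkx2-1*, the lineage factor of the lung, also named after its values were seen, was at 509.9 ± 129.7 and 649 ± 201 CPM (0.35, SE 0.259, edgeR adjusted p = 0.405). The number called was 3 without *K-Ctrl* replicate 1 or 3 and with sex as a term, and 9 without *K-Ctrl* replicate 4. *Elf3*, *Cebpa* and *Foxa2* kept their calls with any 1 tumor left out, and *Tcf21* in 5 of these 8 fits. Under scaling to the epithelial markers, of which *Elf3* is itself 1, *Elf3* was called higher and 6 of the 21 genes lower, where 35.9% of all genes were called lower and the median of all genes was -0.59. *Cebpa* and *Foxa2* lost their calls on this scale, at log2 fold changes of 0.30 and 0.39.

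Markers of other cells were counted in the same way and stand beside all results above. Their counts are to be read beside the 4.97% of all genes tested that edgeR called higher and the 7.74% that it called lower. In bulk tumors, fewer cells of a type and less RNA per cell cannot be told apart. Of 20 general epithelial markers 9 were called higher and none lower (edgeR, with 15 at an unadjusted p under 0.05; DESeq2 called 10 higher and 1 lower), for a median difference of 0.60 on the log2 scale. Their summed level was 2663 to 4049 CPM in *K-Ctrl* and 3739 to 4659 CPM in *K-Setd2KO*, and the count of called markers was 2 without *K-Ctrl* replicate 3 and 14 without *K-Ctrl* replicate 4. Of 12 alveolar type 1 markers 4 were called lower (summed level 3475 to 7114 and 2151 to 3594 CPM), and of 8 club cell markers 1 was (777 to 3597 and 447 to 1151 CPM). Of 12 alveolar macrophage markers 8 were called lower (2308 to 6848 and 532 to 2635 CPM), of 12 macrophage and leukocyte markers 7 (6754 to 15689 and 6595 to 12247 CPM), and of 14 endothelial markers 4 (1002 to 3395 and 423 to 916 CPM). Most of the macrophage and leukocyte sum was *Lyz2*, also a listed type 2 marker and named after its values were seen. *Lyz2* was at 6125 to 14652 CPM in *K-Ctrl* and 6374 to 11988 CPM in *K-Setd2KO* (log2 fold change of -0.30, edgeR adjusted p = 0.529). The median log2 fold change of these 12 macrophage and leukocyte markers was -1.43, with all 12 below 0. Of 10 dendritic cell markers tested 4 were called lower (494 to 1068 and 600.1 to 793 CPM), and of 5 B cell markers tested none was called (13.5 to 60.1 and 13.8 to 22.4 CPM; by edgeR 3 had an unadjusted p under 0.05, and DESeq2 called 2 lower). Of 8 adipocyte markers 1 could be tested and was not called by edgeR, while its unadjusted p was under 0.05 and DESeq2 called it lower (1.43 to 51.5 and 0.205 to 2.98 CPM), and *Adipoq* and *Lep* were at 0 counts in all tumors. Several of these counts moved with the setting. The 4 endothelial markers became 1 without *K-Ctrl* replicate 1 or 3 or *K-Setd2KO* replicate 2, 3 or 4, 1 with a sex term or no filter on low counts, 2 with limma voom and 9 with DESeq2. The 8 alveolar macrophage markers became 4 without *K-Ctrl* replicate 1 or 3 or *K-Setd2KO* replicate 1 or 3, with a sex term and with no filter, 5 without *K-Setd2KO* replicate 4 and with limma voom, and 9 with DESeq2. The 4 type 1 markers became 2 without *K-Ctrl* replicate 3 or *K-Setd2KO* replicate 4, 1 with a sex term or no filter and 8 with DESeq2. The dendritic cell markers became 2 without *K-Setd2KO* replicate 3 and 7 with DESeq2 or a sex term. The club cell marker lost its call without *K-Ctrl* replicate 1 or 3 or *K-Setd2KO* replicate 3, with a sex term and with no filter. DESeq2 and limma voom each called 2 of the 8 club cell markers lower. Without *K-Setd2KO* replicates 1 and 2, 2 and 1 B cell markers were called lower, and with a sex term 2 were. The 7 macrophage and leukocyte markers called stayed 7 in each of the 8 fits with a tumor left out. The part of these levels in the surfactant gene results was not tested.

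Levels were therefore also read relative to epithelial markers. With libraries scaled to these 20 genes, *Sftpb* remained higher (log2 fold change 0.51, edgeR adjusted p = 0.0366) and *Napsa* lower (-2.15, edgeR adjusted p = 0.00610), while *Lpcat1* was at 0.47 and was not called (edgeR adjusted p = 0.141). *Sftpc* (-0.58, edgeR adjusted p = 0.0298), *Abca3* (-0.61, 0.0208) and *Cd36* (-0.75, 0.0167) were called lower on this scale, on which 35.9% of all genes were called lower and the median of all genes was -0.59. Relative to that median *Sftpb* was at 1.10, *Lpcat1* at 1.06, *Napsa* at -1.56, *Sftpc* at 0.0020, *Abca3* at -0.02 and *Cd36* at -0.16. The log2 fold change of *Sftpc* thus lay at the median of all genes on this scale, and that of *Abca3* close to it.

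**Figure D5:**
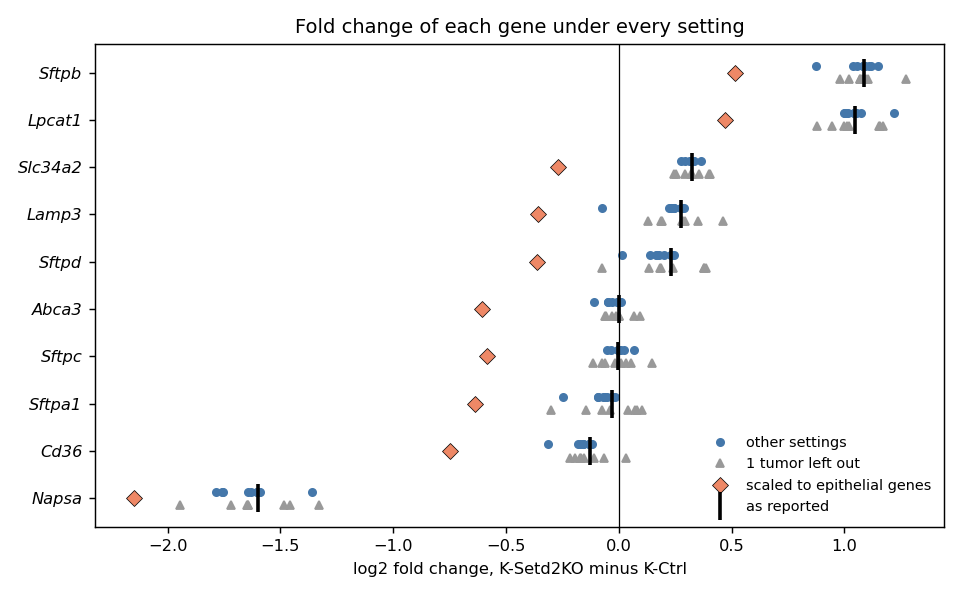
Log2 fold change (*K-Setd2KO* minus *K-Ctrl*) of each gene as reported (bars), with 1 tumor left out (triangles), with libraries scaled to epithelial markers (diamonds) and in the other settings (circles). *Sftpb* and *Lpcat1* stay above 0 and *Napsa* stays below 0 in all 19 settings, whereas *Slc34a2*, *Lamp3* and *Sftpd* lie above 0 as reported and below 0 when scaled to epithelial markers.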

How the data were processed

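RNA of 8 tumors was sequenced from stranded poly(A) libraries, and the authors deposited raw, unnormalized counts for each gene and tumor. The submitters' processing notes name STAR 2.5.2b, featureCounts 1.5.0-p1 and GRCm38.p4. The annotation release and the strand setting of the counting are not given in the sources used here, and the study's methods name another tool for other, sorted tumors. Groups were taken from the labels. Symbols came from GENCODE M21, in which 48349 identifiers (99.26%) were found.

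Counts were analysed in R 4.3.3 with edgeR 4.0.16 (filterByExpr, TMM, robust quasi-likelihood test of genotype), with Benjamini-Hochberg adjustment over 14929 genes and a threshold of 0.05. The SE was derived from the fold change and the F value of each gene. CPM was computed from TMM-scaled library sizes, and ratios and likeness used a prior count of 2. Single values were tested by two-sided exact permutation over 70 assignments. A limit of 3 counts equalled 0.138 to 0.513 CPM, which covers counting error only. The lowest count of a member was 237. In none of the 28 pairs of libraries were counts alike within sampling noise (chi-square of at least 30.5 per degree of freedom). DESeq2 1.42.0 and limma 3.58.1 were alternatives. Other scalings, filters on low counts, a sex term, a replicate block, subtraction of chromosome medians and leaving out each tumor were further alternatives, and a limma fit of log2 CPM without that subtraction was added after the data were seen. The test was checked on simulated counts.

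The members and all lists were chosen with earlier results of these data known. Genes named are the members, *Setd2*, up to 3 called genes per direction and list by smallest p, both genes of each ratio, and the 2 genes most like each member. The genes most like *Sftpb* are not reported here. Any other gene is said to be named after its values were seen. Genes on 2 lists are counted in both. Promoters came from RefSeq (GRCm38.p6), in which 7 of 10 members had one.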

Additional observations from a re-analysis of the deposited data

Results flagged for a closer look

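Within each group of 4 tumors, the gap between an extreme tumor and its nearest neighbor was compared with the range of the group. Of 28 such groups (CPM of the 10 members and the 4 ratios in both genotypes), 2 held a tumor that stood apart, where chance gives 1.4. Both were *K-Ctrl* replicate 4. For *Napsa* this tumor was at 436 CPM, while the other 3 *K-Ctrl* tumors lay between 308 and 311 CPM, and the gap took 0.974 of the range. For *Lpcat1* it was at 1492 CPM against 1118 to 1177 CPM in the other 3, and the gap took 0.842 of the range. This tumor was the highest *K-Ctrl* tumor for *Napsa*, whose group fell, and for *Lpcat1*, whose group rose. Without it the log2 fold change of *Napsa* was -1.46 (edgeR adjusted p = 0.0628), so that its call was lost, while *Lpcat1* kept its call.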

How the results depend on the processing

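*Sftpb*, *Lpcat1* and *Napsa* kept their direction in all 19 planned settings. *Sftpb* kept its call in 18, *Lpcat1* in 13 and *Napsa* in 11. The calls of *Lpcat1* and *Napsa* were near the threshold, and members that missed it were not shown to be equal. The 5806599 counts of *K-Setd2KO* replicate 4 did not limit the members, which had at least 237 counts. The cause was not tested for any change listed here.

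Of 1897 genes called by edgeR, the number became 3194 with DESeq2, 5480 (118 higher and 5362 lower, against 742 and 1155) with scaling to epithelial markers, 1237 with a sex term and 763 (without *K-Ctrl* replicate 3) to 2058 (without *K-Setd2KO* replicate 2) with 1 tumor left out. With edgeR and no filter on low counts, with the replicate block and with a sex term, 0 members were called lower, and *Napsa* was at -1.59 (adjusted p = 0.0936), -1.76 (0.0574) and -1.36 (0.0701). In the fit as reported 3 members had an unadjusted p under 0.05, and DESeq2 and limma each called *Napsa* lower. With scaling to epithelial markers 1 member was called higher and 4 lower. With 1 tumor left out, 1 to 2 members were called higher and 0 to 1 lower. The other type 2 markers called were 7 with DESeq2, 7 with epithelial scaling and 1 to 5 with 1 tumor left out. Phospholipid synthesis genes called were 6 with DESeq2, 5 with upper-quartile factors, with total counts and with at least 10 counts in every tumor, 1 with a sex term and 1 to 5 with 1 tumor left out. The processing and traffic genes called were 11 of 28 with epithelial scaling (all lower, beside 35.9% of all genes), and the regulators 3 with a sex term and 3 to 9 with 1 tumor left out.

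Signs near 0 changed. *Sftpc* was at 0.00016 with upper-quartile factors, 0.0043 with no filter, 0.068 with a sex term 0.022 with chromosome medians subtracted and 0.0063 in the limma fit without that subtraction. *Abca3* was at -0.0011 with DESeq2, -0.0011 with RLE factors, -0.050 with total counts, -0.61 with epithelial scaling, -0.0074 with limma voom, -0.030 with at least 10 counts, -0.11 with a sex term, -0.048 with chromosome medians subtracted and -0.0031 in the limma fit without that subtraction. Epithelial scaling gave -0.36 for *Sftpd*, -0.36 for *Lamp3* and -0.27 for *Slc34a2*, and a sex term gave -0.076 for *Lamp3*. With 1 tumor left out the log2 fold changes ran from -0.30 to 0.10 for *Sftpa1*, -0.11 to 0.15 for *Sftpc*, -0.073 to 0.38 for *Sftpd*, -0.061 to 0.096 for *Abca3* and -0.22 to 0.032 for *Cd36*.

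Same-numbered tumors of both groups did not deviate together (correlations of -0.07, -0.03, 0.19 and -0.02, with only replicate 3 correlating best with its own number), so the numbers were not taken to pair them. With the replicate number as a block, 1341 genes were called, 1 member higher and 0 lower, and 1 phospholipid synthesis gene. *Sftpc* was then at 0.0070, *Abca3* at -0.0030 and *Lpcat1* at 1.00 (edgeR adjusted p = 0.0609). All 4 ratios kept their direction with a prior count of 0.5 and with any 1 tumor left out.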
